A study of Mus musculus with 13 samples.

Results

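The cytosolic ribosomal protein genes are the genes for the proteins of the ribosome that works outside mitochondria. They were taken from the table of gene counts by symbol, as Rps or Rpl with a number and at most 1 letter and 1 further digit after it, together with Rplp0, Rplp1, Rplp2 and Rpsa. Pseudogenes whose symbol ends in -ps and the S6 kinase genes (Rps6k) were left out. The rule found 89 of 55357 genes, 36 of the small subunit and 53 of the large subunit. The annotation calls 83 of them protein-coding and 6 pseudogenes (Rps4l, Rps12l1, Rpl32l, Rpl6l, Rps3a3 and Rps3a2). A filter on low counts kept 88 of the 89, and only Rpl10l, with 1 count in all libraries together, was not tested. The rule does not reach Fau, Rack1 and Rpl36al, which are also ribosome components and are given further on.

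The RNA came from the tails of mice with lymphedema, in which lymph drains poorly and tissue swells, and it was sequenced as total RNA without ribosomal RNA. There were 7 samples labelled TNTSham and 6 labelled TNTProx1, and each was taken on day 28 after TNT from mice 12 weeks old. The abbreviation TNT was read as tissue nanotransfection, a delivery of nucleic acids into skin by a short electric field, and Prox1 is the transcription factor gene that sets lymphatic endothelial identity. The labels name no strain, sex or construct. They also leave unsaid whether each sample was its own animal, so a p-value here speaks for the spread among samples, which may be technical.

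A ribosome is built from ribosomal RNA and a matched set of proteins, and a cell keeps these proteins in step with each other. Their mRNAs are short, abundant and stable, and many begin with a C followed by a run of pyrimidines, the 5′ terminal oligopyrimidine (TOP) sequence through which mTOR signalling sets how much of the mRNA is translated. In skin, dividing basal keratinocytes, hair follicles and active fibroblasts make many ribosomes, while muscle fibres carry a few ribosomal proteins of their own, such as Rpl3l.

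The start of the transcript is where the TOP sequence lies, so 30-base windows around the annotated start of some members are shown, from 10 bases before the start to 20 from it, 5′ to 3′ on the strand of the gene, from RefSeq on the build GRCm38.p6. Capitals mark a run of a C and at least 4 further pyrimidines that begins within 5 bases of the start. For a gene with several annotated starts, the start with the longest such run was chosen, and without any run the start of lowest coordinate. Rps27l, Rps24 and Rpl3l have 2 starts each, so the windows of Rps27l and Rps24 were picked for their run. Rps6, the protein phosphorylated by the S6 kinases, has such a run (chr4:86857348-86857377, minus strand). So have Rps26 (chr10:128626487-128626516, minus strand), Rplp2 of the stalk (chr7:141447641-141447670, plus strand), Rps27 (chr3:90213629-90213658, minus strand), its paralog Rps27l (chr9:66946076-66946105, plus strand) and Rps24 (chr14:24490668-24490697, plus strand). Rpl36a (chrX:134585644-134585673, plus strand) and Rpl3l (chr17:24727816-24727845, plus strand) have no such run beginning within 5 bases of the start.
Rps6: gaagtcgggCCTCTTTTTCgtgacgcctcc
Rps26: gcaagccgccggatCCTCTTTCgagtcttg
Rplp2: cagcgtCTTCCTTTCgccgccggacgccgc
Rps27: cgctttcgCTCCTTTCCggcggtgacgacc
Rps27l: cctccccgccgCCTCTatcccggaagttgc
Rps24: gctggggtCCTTCCTTgcgcgttgatatga
Rpl36a: cccaggcaccgcctataaacttccgttgcg
Rpl3l: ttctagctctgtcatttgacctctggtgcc

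RefSeq promoters could be matched by symbol for 64 of the 89 members. A gene with several promoters was counted if any of them held the run or motif, in the members and in all other genes alike. The run was found in 30 of the 64 (46.9%), against 21.2% of all 27025 genes with a promoter in the table and 24.6% of 69 genes for proteins of the mitochondrial ribosome. In the promoter, from 250 bases before the start to 50 from it and on both strands, the ETS-type motif CCGGAAG was present in 40.6% of the 64 members, 9.93% of all genes and 37.7% of the mitochondrial ribosomal protein genes. The YY1-type motif AAGATGGC was present in 9.38%, 3.19% and 17.4%. These are matches of letters and were not tied to binding in this tissue.

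The libraries held 29691929 to 48007392 counts in all, of which 413032 to 1078849 fell on the members. TNTProx1 4, 5 and 6 stood apart from the other 10 libraries. Provisional gene models of the annotation class TEC took 0.136 to 0.193% of their counts, against 0.378 to 0.745% elsewhere, and Malat1, an RNA kept in the nucleus, lay at 3410 to 3539 CPM (counts relative to the scaled library total) against 8979 to 16814 CPM. Mitochondrially encoded genes took 0.652 to 1.27% of counts in the 6 TNTProx1 libraries, each below the TNTSham range of 1.29 to 2.11%. No label separates these 3 libraries from TNTProx1 1, 2 and 3. The results for the members as a whole are therefore given for all 6, for 1 to 3 and for 4 to 6. Many single genes and lists are given for only some of these comparisons. All 3 comparisons use the same 7 TNTSham libraries and are not independent of each other. Markers of keratinocytes, fibroblasts, endothelium, muscle, leukocytes, bone and fat were detected in the tissue, none of them at 0 in every library. Xist, expressed from the inactive X chromosome, was at 2095 CPM in TNTSham 1 and at no more than 2.01 CPM in the others.

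The members as a whole took the same share of counts in both groups, but the TNTProx1 libraries fell on either side of TNTSham. Their share was 1.73% ± 0.257 (SD, n = 7) in TNTSham and 1.72% ± 0.609 (SD, n = 6) in TNTProx1. The TNTSham libraries 1 to 7 had 1.78, 1.88, 1.83, 1.52, 1.34, 1.62 and 2.12%. TNTProx1 1, 2 and 3 had 1.08, 1.27 and 1.18%, all below the lowest TNTSham library. TNTProx1 4, 5 and 6 had 2.48, 2.21 and 2.09%, of which 4 and 5 lay above the highest TNTSham library and 6 within the range. The SD of the TNTProx1 group is thus made of 2 sets of libraries that do not overlap, 1.18% ± 0.0970 (SD, n = 3) and 2.26% ± 0.202 (SD, n = 3).

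The small and large subunits moved together. The ratio of large to small subunit counts was between 1.24 and 1.35 in all 13 libraries, while the share of counts on the members ranged from 1.08 to 2.48%. The -ps pseudogenes, 300 rows of the table, held between 12.99 and 13.96% as many counts as the members in every library. Reads of a ribosomal protein mRNA and of its pseudogene copies are hard to tell apart, and the labels do not state how reads with several alignments were counted. The values of the members, and of the 6 that the annotation calls pseudogenes in particular, are uncertain in that respect.

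**Figure D1:**
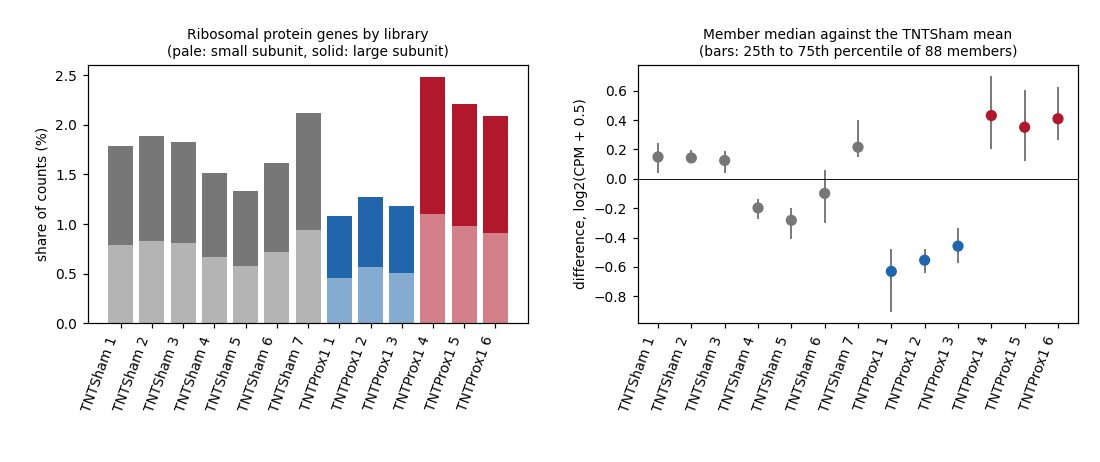
Left, the share of all counts (%) on ribosomal protein genes in each library, with the small subunit pale and the large subunit solid; right, the median over 88 members of each library's difference from the TNTSham mean in log2(CPM + 0.5), with bars from the 25th to the 75th percentile of members. TNTProx1 1 to 3 (blue) lie below every TNTSham library (grey) in both panels, and TNTProx1 4 to 6 (red) lie at 2.09 to 2.48% and at 0.35 to 0.43.

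Seen member by member, the median difference from the TNTSham mean was between -0.28 and 0.22 on the log2(CPM + 0.5) scale in the TNTSham libraries. It was -0.63, -0.55 and -0.46 in TNTProx1 1, 2 and 3 and 0.43, 0.35 and 0.41 in TNTProx1 4, 5 and 6. In TNTProx1 1, 2 and 3, respectively, 75, 69 and 56 of the 88 members were lower than in any TNTSham library, and 0 were higher than in all of them. In TNTProx1 4, 5 and 6, respectively, 57, 49 and 61 members were higher than in any TNTSham library and 1, 3 and 1 were lower than in all of them. The share of all tested genes outside the TNTSham range was not computed for single libraries. These counts therefore have no background and do not show an excess by themselves. Counts for whole sets of libraries are given below with their background. Within TNTSham, libraries 4 and 5 had the lowest shares on the members (1.52 and 1.34%) together with the highest Malat1 (16814 and 16316 CPM). The part of nuclear RNA content in the level of the members was not tested.

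**Figure D2:**
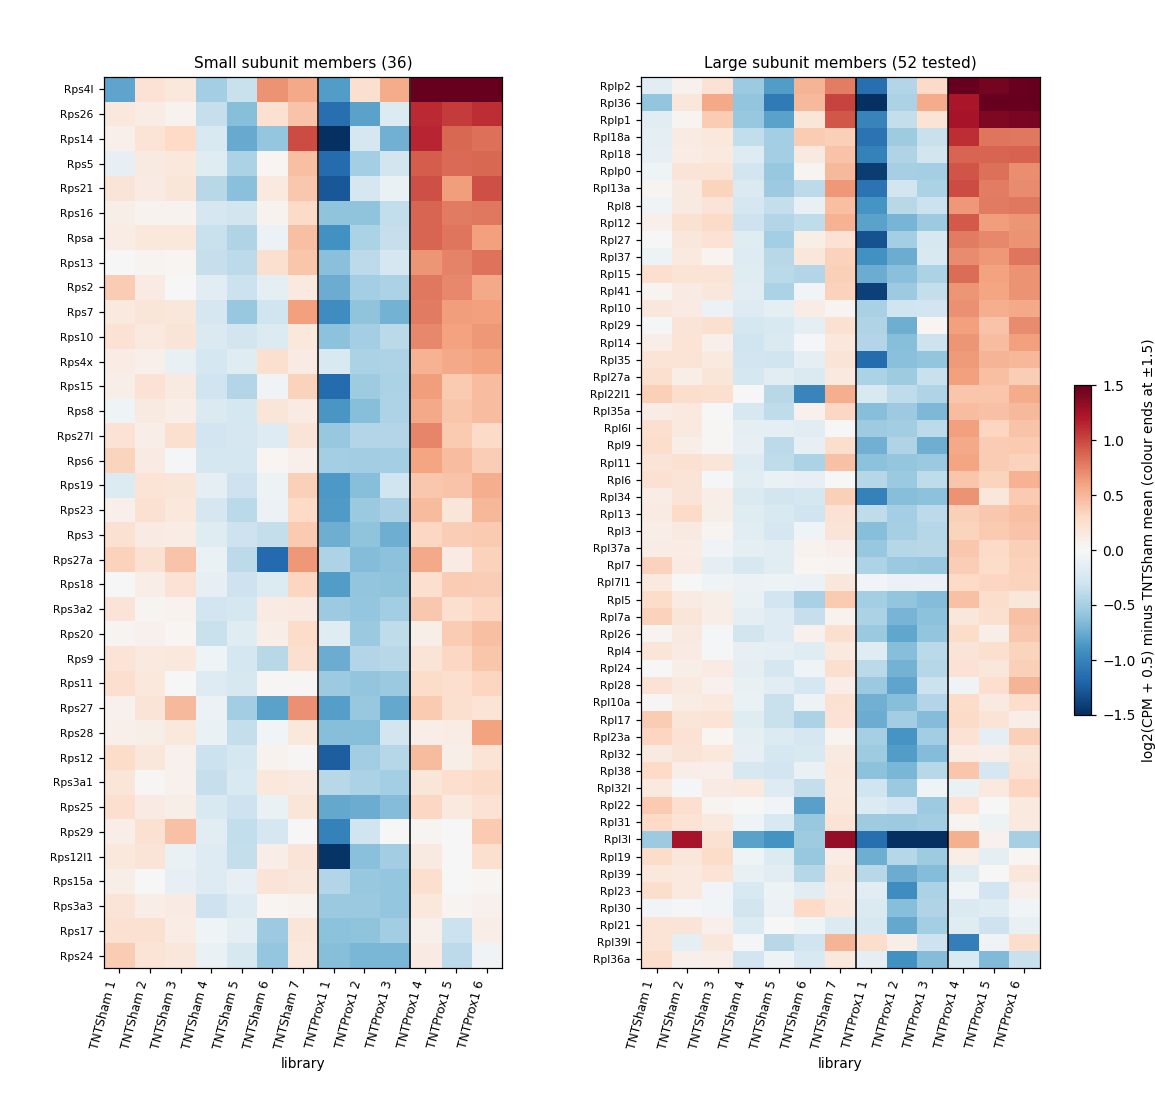
Difference of each library from the TNTSham mean in log2(CPM + 0.5), for 36 small subunit members (left) and 52 tested large subunit members (right), ordered by the change in TNTProx1 4 to 6; blue is lower, red higher, and colours end at 1.5 in either direction. The columns of TNTProx1 1 to 3 are blue in nearly every row, and those of TNTProx1 4 to 6 go from red at the top to pale or blue at the bottom.

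Most members followed this common course. Across the 13 libraries, Pearson's r between a member's log2 level and the median of all members was over 0.9 for 55 of 88 members and over 0.7 for 81, with a median of 0.92. These correlations share libraries and depth, and each member is part of the median, so they describe the data only. The members least like the rest were Rpl39l (r = -0.09), Rpl36a (0.35) and Rpl21 (0.49).

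In the comparison of all 6 TNTProx1 with all 7 TNTSham libraries, no ribosomal protein gene was called. The quasi-likelihood test of edgeR called 0 of the 88 members at an adjusted p under 0.05, and it called 0% of the 22876 genes tested in either direction. The median log2 fold change (TNTProx1 over TNTSham) was -0.01 over the members and -0.02 over all genes, and 42 of 88 members (47.7%) had a positive value, as had 47.7% of all genes. At an unadjusted p under 0.05 there was 1 member higher (background 8.33%) and there were 4 lower (background 3.92%). No member had all 6 TNTProx1 libraries above the TNTSham range (background 0.398%) or below it (background 0.214%).

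Other tests on the same counts called a few members lower. The Wald test of DESeq2 called 619 genes and 1 member, Rpl36a, which was lower (background 0.976% lower and 2.64% higher). Limma voom with quality weights called 573 genes and 6 members, all lower (background 0.647% lower and 1.86% higher): Rpl21, Rpl32, Rps15a, Rps24, Rpl39 and Rpl36a. The member median under voom was -0.39. Its library weights were 0.118, 0.330 and 0.296 for TNTProx1 4, 5 and 6 and 0.809 to 2.96 for the other 10, so this value leans on TNTProx1 1 to 3.

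TNTProx1 1 to 3 had lower levels of nearly every ribosomal protein gene than TNTSham, although the edgeR test passed none of them. Of 88 members 86 had a negative log2 fold change, the median was -0.58 (all genes -0.00), against 49.8% of all genes with a positive one; from the 25th to the 75th percentile the members lay between -0.66 and -0.48. All 3 libraries were below the whole TNTSham range for 49 members (55.7%, against a background of 5.80%) and above it for 0 (background 3.45%). At an unadjusted p under 0.05, 77 members were lower (87.5%, against 12.1% of 23853 genes) and 0 were higher (9.34%). The adjusted p of edgeR was 0.0685 at its smallest, and 0 members and 0 genes were called (0%).

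The count of members called lower in TNTProx1 1 to 3 turned on the test and on single libraries. DESeq2 called 70 of 88 members lower and 0 higher (background 7.52% and 4.70%), and voom called 59 lower and 0 higher (background 5.48% and 5.11%). With edgeR, leaving out TNTSham 5, the TNTSham library with the lowest share on the members, gave 44 members lower and 0 higher (background 2.33% and 1.69%), and leaving out TNTProx1 1 gave 16 lower and 0 higher (background 3.07% and 2.07%). Each of the other 8 libraries left out gave 0. The member median stayed between -0.64 and -0.51 in all 15 alternatives of scaling, test and libraries.

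TNTProx1 4 to 6 had higher levels of 43 members by the edgeR test and a lower level of 1. The 43 are 48.9% of the 88, against a background of 14.6% of 23825 genes called higher, and the 1 member called lower, Rpl36a, stands against a background of 15.0%. The median log2 fold change was 0.38 (all genes -0.01), 78 members had a positive value, against 49.0% of all genes, and from the 25th to the 75th percentile the members lay between 0.22 and 0.64. All 3 libraries were above the TNTSham range for 44 members (50%, background 12.8%) and below it for 0 (background 14.9%). Upper quartile scaling moved the median of all genes from -0.01 to -0.11 and the member median to 0.29. Scaling by library totals gave 34 members higher (background 10.4%) and 1 lower (background 17.3%). Over all genes edgeR called 3479 higher and 3568 lower, with upper quartile scaling 2390 and 4413, and with library totals 2479 and 4124.

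The 2 sets of TNTProx1 libraries hardly overlapped. All of TNTProx1 4 to 6 were above all of TNTProx1 1 to 3 for 81 of 88 members (92.0%, background 23.1%) and below for 0 (background 24.6%). This split was seen in the data and was not tested. In these bulk samples, fewer cells of a ribosome-rich type and less ribosomal protein mRNA per cell cannot be told apart. Summed keratinocyte markers, 6 of 6 detected, were at 26113 to 40610 CPM in TNTSham, between 5669 and 30525 CPM in libraries 1 to 3 of TNTProx1 and between 29192 and 55334 CPM in libraries 4 to 6. Summed skeletal muscle markers, 8 of 8 detected, were at 9084 to 15400, 4972 to 11631 and 4124 to 5699 CPM. Summed fibroblast markers, 5 of 5 detected, were at 25562 to 49114, 36876 to 102918 and 34610 to 60453 CPM, and those of bone and cartilage, 5 of 5 detected, at 110.3 to 672, 758 to 1041 and 421 to 555 CPM. In libraries 1 to 3 the keratinocyte and muscle sums reached below and the fibroblast sum above the range of TNTSham. The bone and cartilage sum was above all of TNTSham there. In libraries 4 to 6 the muscle sum was below all of TNTSham, and the keratinocyte and fibroblast sums reached above its range. The part of these cell types in the level of the members was not tested.

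The stalk proteins were among the members called higher in TNTProx1 4 to 6. Rplp0, Rplp1 and Rplp2 form the stalk of the large subunit that recruits elongation factors. Rplp2 was at 51.8, 96.6 and 158 CPM (lowest, median, highest) in TNTSham, at 42.2, 68.3 and 113 CPM in TNTProx1 1, 2 and 3 and at 285, 251 and 281 CPM in TNTProx1 4, 5 and 6. TNTProx1 4 to 6 all lay above TNTSham, and TNTProx1 1 to 3 overlapped it. The log2 fold change was 0.81 ± 0.408 (SE; adjusted p = 0.443 by edgeR) for all 6 libraries, -0.41 ± 0.347 (adjusted p = 0.538) for 1 to 3 and 1.47 ± 0.264 (adjusted p = 0.00214) for 4 to 6. Rplp1 was at 90.3, 163 and 302 CPM in TNTSham, at 78.8, 123 and 182 CPM in TNTProx1 1 to 3 and at 373, 419 and 424 CPM in TNTProx1 4 to 6. Again only TNTProx1 4 to 6 stood clear of TNTSham, with a log2 fold change of 1.26 ± 0.280 (adjusted p = 0.00607 by edgeR). Rplp0 was at 479, 731 and 999 CPM in TNTSham, at 265, 505 and 501 CPM in TNTProx1 1 to 3 and at 1366, 1266 and 1160 CPM in TNTProx1 4 to 6. Its log2 fold change was -0.79 ± 0.244 (adjusted p = 0.0981 by edgeR) for 1 to 3 and 0.80 ± 0.179 (adjusted p = 0.00644) for 4 to 6, and 0.21 ± 0.326 (adjusted p = 0.822) for all 6.

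Rpl36, a small protein of the large subunit, followed Rplp1 and Rplp2. It was at 10.6, 25.5 and 46.3 CPM in TNTSham, at 7.30, 16.1 and 33.6 CPM in TNTProx1 1, 2 and 3 and at 53.5, 71.5 and 77.9 CPM in TNTProx1 4, 5 and 6. The log2 fold change for 4 to 6 was 1.42 ± 0.359 (adjusted p = 0.0116 by edgeR). Within TNTSham these 3 genes were also among the more variable members, with an SD of the log2 level of 0.76 for Rpl36, 0.58 for Rplp1 and 0.56 for Rplp2, against 0.11 for Rpl7l1 at the other end.

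Rpsa, of the small subunit and also described as a laminin receptor, was at 367, 542 and 683 CPM in TNTSham, at 268, 362 and 395 CPM in TNTProx1 1, 2 and 3 and at 916, 872 and 768 CPM in TNTProx1 4, 5 and 6. All of 4 to 6 were above TNTSham (0.74 ± 0.165, adjusted p = 0.00615 by edgeR), and 1 to 3 reached into its lower end (-0.58 ± 0.194, adjusted p = 0.115). Rps26, a small subunit protein mutated in some forms of Diamond-Blackfan anemia, was at 104 to 218 CPM in TNTSham and at 352, 335 and 349 CPM in TNTProx1 4, 5 and 6. Its log2 fold change there was 1.07 ± 0.178 (adjusted p = 0.00148 by edgeR). In TNTProx1 1, 2 and 3 it was at 73.7, 92.5 and 141 CPM, a change of -0.70 ± 0.238 (adjusted p = 0.121). Over all 6 libraries the change of Rps26 was 0.43 ± 0.347 (adjusted p = 0.655). The smallest adjusted p of any member belonged to Rps16, at 129 to 192 CPM in TNTSham, 103, 103 and 121 CPM in TNTProx1 1 to 3 and 286, 269.7 and 272 CPM in TNTProx1 4 to 6 (0.81 ± 0.114, adjusted p = 0.000631).

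**Figure D3:**
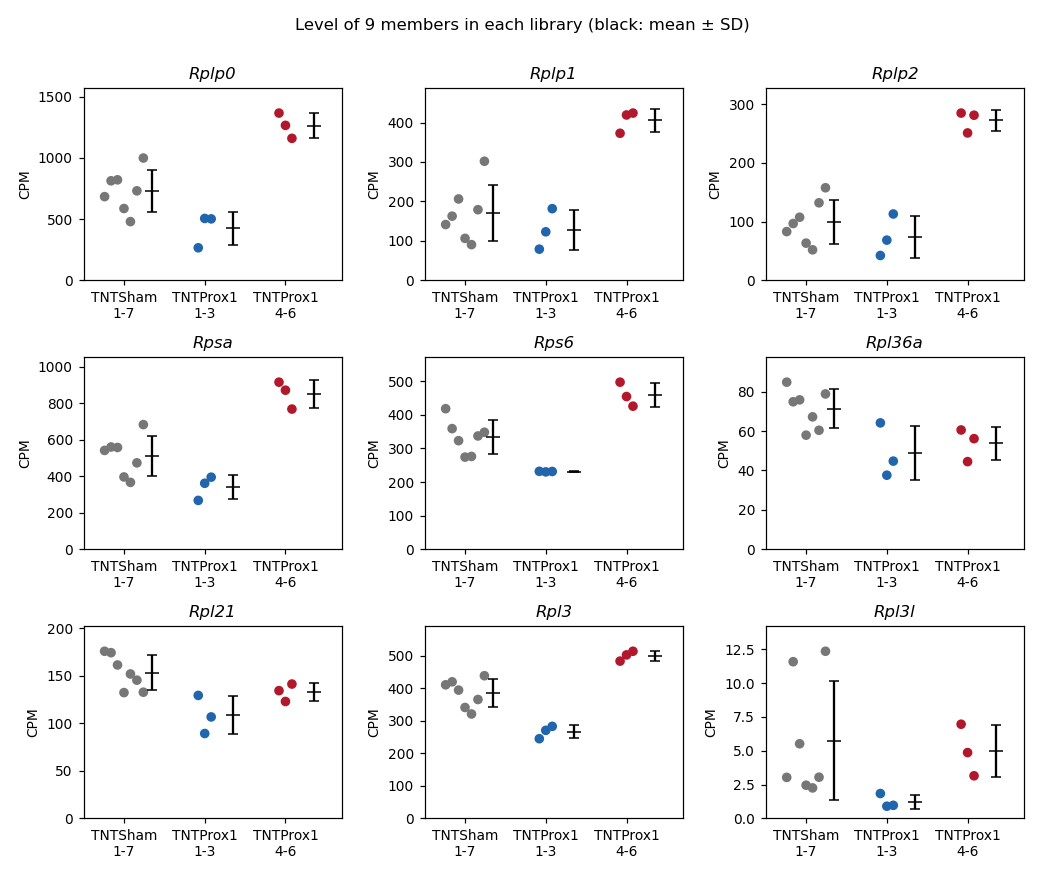
CPM of 9 members in each library, with TNTSham grey, TNTProx1 1 to 3 blue and TNTProx1 4 to 6 red; black bars are the mean ± SD of each set, and each axis starts at 0. In Rplp0, Rplp1, Rplp2, Rpsa, Rps6 and Rpl3 the red points lie above all grey points, while in Rpl36a and Rpl21 they lie in the lower part of the grey range or below it.

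Rps6, Rps19, Rpl5, Rpl11, Rpl13a and Rps27a were named for known roles beyond the ribosome, and 3 of them were called higher in TNTProx1 4 to 6. That is close to the share of all members called higher (48.9%), beside a background of 14.6% of all genes. Rps6, the target of the S6 kinases, was at 274, 337 and 418 CPM in TNTSham, at 232, 230.4 and 232 CPM in TNTProx1 1, 2 and 3 and at 497, 455 and 426 CPM in TNTProx1 4, 5 and 6. The 3 sets did not overlap, with log2 fold changes of -0.53 ± 0.132 (adjusted p = 0.0728 by edgeR) and 0.47 ± 0.125 (adjusted p = 0.015). Rps19, the gene most often mutated in Diamond-Blackfan anemia, was at 147 to 235 CPM in TNTSham, 101, 118 and 149 CPM in TNTProx1 1 to 3 and 242, 246 and 267 CPM in TNTProx1 4 to 6, with 0.45 ± 0.139 for 4 to 6 (adjusted p = 0.0294). Rpl13a, which leaves the ribosome to silence some inflammatory mRNAs, had 0.78 ± 0.211 for 4 to 6 (adjusted p = 0.0161 by edgeR).

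Rpl5 and Rpl11, which bind Mdm2 together with 5S ribosomal RNA, were below TNTSham in TNTProx1 1 to 3 and overlapped it in 4 to 6. Rpl5 was at 194, 291 and 359 CPM in TNTSham and at 192, 181 and 173 CPM in TNTProx1 1, 2 and 3, a log2 fold change of -0.61 ± 0.174 (adjusted p = 0.0839 by edgeR). Rpl11 was at 109.6, 172 and 207 CPM in TNTSham and at 99.6, 102 and 103 CPM in TNTProx1 1, 2 and 3, a change of -0.62 ± 0.187 (adjusted p = 0.0927 by edgeR). For 4 to 6 the changes were 0.27 ± 0.165 (adjusted p = 0.231) and 0.42 ± 0.178 (adjusted p = 0.0960). Rps27a, made as a fusion with ubiquitin, overlapped TNTSham in both sets. It was at 74.2, 194 and 262 CPM in TNTSham, and the lowest value came from TNTSham 6.

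In TNTProx1 4 to 6, 10 of the 88 members had a negative log2 fold change, and only 43 were called higher. Rpl36a, an X-linked protein of the large subunit, was at 57.9, 74.9 and 84.8 CPM in TNTSham, at 64.2, 37.6 and 44.8 CPM in TNTProx1 1, 2 and 3 and at 60.6, 44.5 and 56.2 CPM in TNTProx1 4, 5 and 6. Both sets reached from below TNTSham into its lower end. The log2 fold change was -0.48 ± 0.135 (adjusted p = 0.153 by edgeR, the smallest of any member) for all 6 libraries and -0.40 ± 0.135 (adjusted p = 0.0410) for 4 to 6. The second call was lost without TNTSham 1, 2, 3, 5 or 7 or without TNTProx1 5 or 6. The highest TNTSham value, 84.8 CPM, was that of TNTSham 1, the library with Xist. Of the other X-linked members, Rpl10 had 0.61 ± 0.097 for 4 to 6 (adjusted p = 0.00122) and Rps4x 0.56 ± 0.113 (adjusted p = 0.00377). Rpl39 had -0.01 ± 0.139 (adjusted p = 0.976) for 4 to 6 and -0.62 ± 0.146 (adjusted p = 0.0700) for 1 to 3.

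Rpl21, of the large subunit, was at 132, 152 and 176 CPM in TNTSham, at 129, 89.2 and 107 CPM in TNTProx1 1, 2 and 3 and at 134, 123 and 141 CPM in TNTProx1 4, 5 and 6. It lay below TNTSham in 1 to 3 (-0.50 ± 0.135, adjusted p = 0.0766 by edgeR) and overlapped it in 4 to 6 (-0.20 ± 0.109, adjusted p = 0.190). Rpl30 had -0.44 ± 0.132 (adjusted p = 0.0928) and -0.15 ± 0.116 (adjusted p = 0.363). Rps24, also mutated in Diamond-Blackfan anemia, had -0.71 ± 0.181 (adjusted p = 0.0744) and -0.11 ± 0.184 (adjusted p = 0.680). Rps24 has a pyrimidine run at the start printed above, and Rpl36a has none beginning within 5 bases of its start. No promoter was matched for Rpl21 and Rpl30. The part of such a run in the level of these members was not tested.

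Between members, a level can be compared per kilobase of the annotated transcript only. The highest small subunit members on that scale in TNTSham were Rps12 (589.5 CPM per kb), Rps27 (527) and Rps4x (493). Among the large subunit members with the highest level over all libraries, Rplp0 had 538, Rpl4 491 and Rplp1 339.9 CPM per kb in TNTSham. Rps12 itself was at 231, 300.2 and 350.1 CPM in TNTSham and at 123, 201 and 214 CPM in TNTProx1 1, 2 and 3, all below TNTSham (-0.70 ± 0.182, adjusted p = 0.0747 by edgeR). In TNTProx1 4, 5 and 6 it was at 401, 305 and 332 CPM and overlapped TNTSham (0.26 ± 0.135, adjusted p = 0.170). Rpl4 had -0.41 ± 0.132 (adjusted p = 0.110) for 1 to 3 and 0.26 ± 0.106 (adjusted p = 0.0841) for 4 to 6.

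Paralogs were below their partners in level. On the scale of CPM per kb in TNTSham, Rpl3l stood at 4.18 and Rpl3 at 284, Rpl7l1 at 15.4 and Rpl7 at 337, Rpl22l1 at 49.9 and Rpl22 at 151, Rpl39l at 0.672 and Rpl39 at 299.5, Rps27l at 82.2 and Rps27 at 527, and Rps4l at 6.85 and Rps4x at 493. Rpl10l, the testis paralog of Rpl10, had no count in any TNTSham library.

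Rpl3l replaces Rpl3 in the ribosomes of heart and skeletal muscle. It was at 2.25, 3.05 and 12.4 CPM in TNTSham, at 1.84, 0.90 and 0.966 CPM in TNTProx1 1, 2 and 3 and at 6.96, 4.86 and 3.15 CPM in TNTProx1 4, 5 and 6. All of 1 to 3 were below TNTSham, with the largest difference of any member, -2.22 ± 0.639 (adjusted p = 0.0865 by edgeR), while 4 to 6 overlapped it (-0.20 ± 0.554, adjusted p = 0.814). Rpl3, at 321, 394 and 438 CPM in TNTSham, was at 245, 270.4 and 283 CPM in 1 to 3 and at 483, 502 and 513 CPM in 4 to 6, with no overlap between the 3 sets. Its changes were -0.53 ± 0.118 (adjusted p = 0.0685) and 0.39 ± 0.106 (adjusted p = 0.0165). Summed muscle markers, given above, were 9084 to 15400 CPM in TNTSham, 4972 to 11631 CPM in TNTProx1 1 to 3 and 4124 to 5699 CPM in 4 to 6. The 2 TNTProx1 sets overlap, and all of 4 to 6 were below all of TNTSham. The part of muscle content in the level of Rpl3l was not tested.

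Rps4l, which the annotation calls a transcribed processed pseudogene of the Rps4x family, had the greatest change in TNTProx1 4 to 6. It was at 2.72, 5.70 and 8.35 CPM in TNTSham, at 2.62, 6.04 and 7.64 CPM in TNTProx1 1, 2 and 3 and at 17.8, 17.7 and 20.4 CPM in TNTProx1 4, 5 and 6. Only the latter stood clear of TNTSham (1.79 ± 0.286, adjusted p = 0.00124 by edgeR), and in 1 to 3 the change was 0.01 ± 0.376 (adjusted p = 0.995). Whether its reads come from this locus or from a related sequence was not tested. Rpl7l1, which acts in the assembly of the large subunit, was nearly level in 1 to 3 (-0.08 ± 0.089, adjusted p = 0.668) and was higher in 4 to 6 (0.33 ± 0.086, adjusted p = 0.0137), where it had 49.5, 50.02 and 50.4 CPM against 37.6 to 44.9 CPM in TNTSham. Rps27l, a target of p53, had -0.51 ± 0.139 (adjusted p = 0.0796) and 0.48 ± 0.143 (adjusted p = 0.0247), and its partner Rps27 -0.80 ± 0.273 (adjusted p = 0.123) and 0.21 ± 0.256 (adjusted p = 0.563). Rpl22l1 and Rpl22 overlapped TNTSham in both sets. Rpl39l had 252 counts in all and no value that can be read as a difference.

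What the members share beyond the rule was compared with their changes. GC content of the principal transcript went with the change in TNTProx1 4 to 6, with a Spearman rho of 0.41 across 81 coding members, and the medians of 3 equal classes of 27 members, from low to high GC, were 0.32, 0.42 and 0.59. The same rho was 0.29 across 16222 other coding genes. In TNTProx1 1 to 3 the rho was -0.10 across the members and 0.05 across other coding genes. Transcript length had a rho of 0.11 and 0.06 in the members, against -0.29 and 0.22 in other coding genes, for 4 to 6 and 1 to 3. These are correlations across genes of the same libraries and describe them only, and the part of GC content in the level of the members was not tested.

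**Figure D4:**
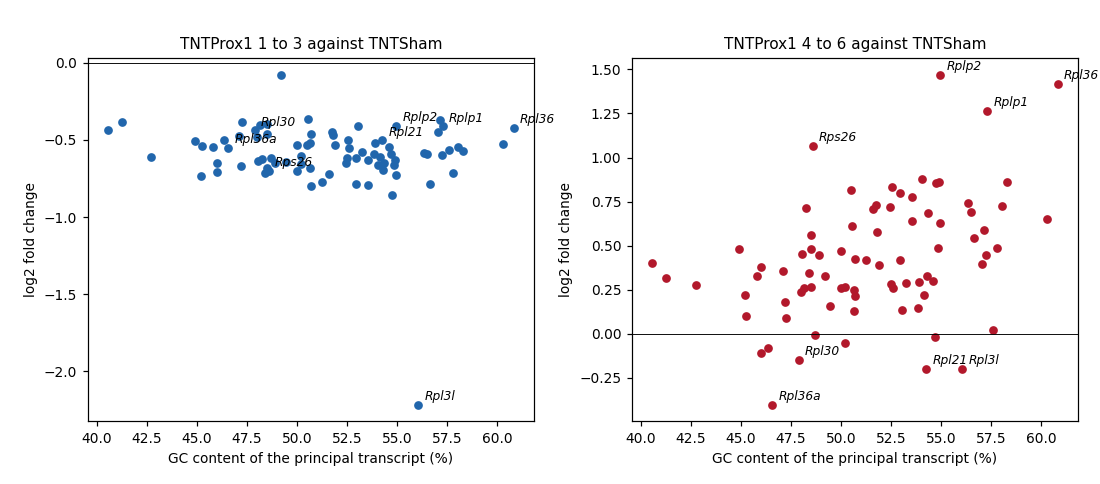
Log2 fold change over TNTSham (vertical axis) against GC content of the principal transcript in % (horizontal axis), 1 point for each of 81 coding members, for TNTProx1 1 to 3 (left) and 4 to 6 (right). In the left panel all points lie below 0 at every GC content, with Rpl3l at -2.22, and in the right panel the points climb with GC content, from a median of 0.32 in the class of lowest GC to 0.59 in that of highest GC.

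Members whose introns hold a snoRNA and members without one had close medians. In TNTProx1 4 to 6 the median was 0.37 over 30 members that hold a snoRNA and 0.39 over 58 that hold none, and in 1 to 3 both were -0.58. Members with a pyrimidine run at the start had a median of 0.44 in 4 to 6 (30 members) and those without one 0.35 (33 members), and -0.59 and -0.58 in 1 to 3. Small and large subunit members had 0.36 and 0.39 in 4 to 6 and -0.59 and -0.56 in 1 to 3. Short transcripts in general lay on the same side: coding genes under 1000 bases other than the members had medians of 0.28 and -0.21.

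These 3 other components of the cytosolic ribosome stood with the members. Fau, which carries the small subunit protein S30, Rack1, a scaffold on the small subunit, and Rpl36al, the autosomal copy of Rpl36a, had a median of 0.70 in TNTProx1 4 to 6 and -0.51 in 1 to 3. In 4 to 6, edgeR called 2 of 3 higher, beside a background of 14.6%. They were Rack1 (0.73 ± 0.140, adjusted p = 0.00286) and Fau (0.70 ± 0.162, adjusted p = 0.00768). Rpl36al was at 28.6 to 45.8 CPM in TNTSham and at 43.8, 37.4 and 49.2 CPM in TNTProx1 4, 5 and 6, and had 0.30 ± 0.154 (adjusted p = 0.165), against -0.40 for Rpl36a. In 1 to 3 edgeR called 0 of the 3.

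Genes of translation followed in the same order with smaller medians, and genes of ribosome assembly less so. For TNTProx1 4 to 6 and 1 to 3, the medians were 0.34 and -0.38 over 11 elongation genes, 0.31 and -0.27 over 35 initiation genes, 0.32 and -0.19 over 78 genes of the mitochondrial ribosome, 0.10 and -0.11 over 40 assembly genes and 0.03 and -0.14 over 15 genes of RNA polymerase I. In 4 to 6, edgeR called higher 4 of 11 elongation genes (1 lower), 18 of 35 initiation genes (2 lower), 33 of 78 mitochondrial ribosomal protein genes (1 lower), 10 of 40 assembly genes (0 lower) and 2 of 15 polymerase genes (2 lower), beside the background of 14.6% higher and 15.0% lower. The share of genes with a positive value in 4 to 6 was 90.9% for elongation, 88.6% for initiation and 89.7% for the mitochondrial ribosome. It was 65% for assembly and 53.3% for RNA polymerase I, beside 88.6% of the members. In 1 to 3 and in all 6 libraries edgeR called 0 genes of these lists.

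**Figure D5:**
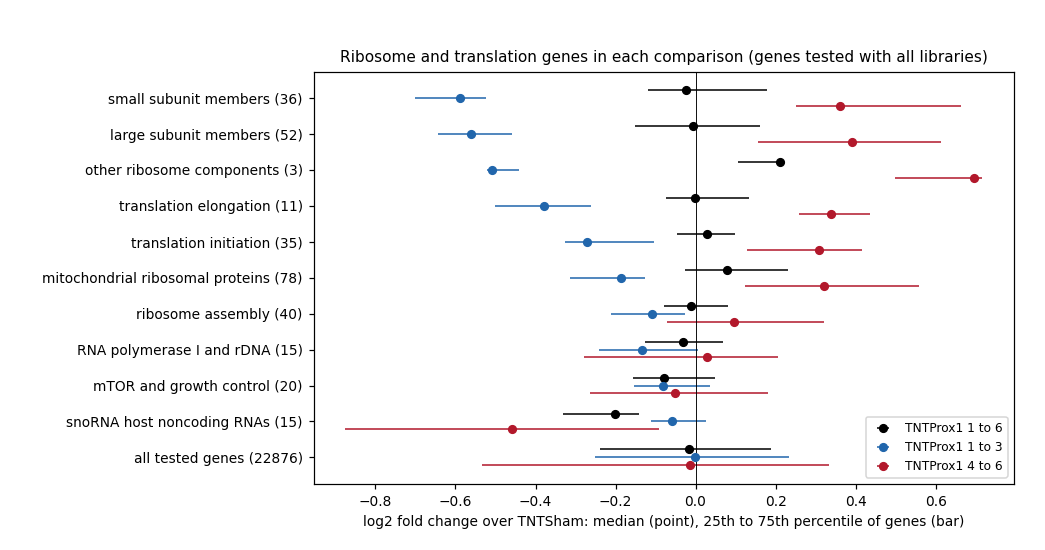
Median log2 fold change over TNTSham (points) and the 25th to 75th percentile of genes (bars) for the ribosomal protein genes and related lists, with the number of tested genes in brackets, for all 6 TNTProx1 libraries (black), 1 to 3 (blue) and 4 to 6 (red). The blue points lie at -0.59 and -0.56 for the 2 subunits and near 0 for all genes, and the black points lie between -0.08 and 0.08 except for the other ribosome components at 0.21 and the snoRNA host RNAs at -0.20.

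Among the translation genes, Eef2, which moves the ribosome along the mRNA, rose by 0.66 ± 0.139 in TNTProx1 4 to 6 (adjusted p = 0.00480 by edgeR), and Eef2k, the kinase that inhibits it, fell by 0.27 (SE 0.092, adjusted p = 0.0417). Eif6, which keeps the large subunit from joining too early, rose by 0.79 ± 0.089 (adjusted p = 0.000259), and Eif4a2, an RNA helicase of initiation, fell by 0.55 (SE 0.103, adjusted p = 0.00262). Eefsec, the elongation factor for selenocysteine, rose by 0.40 ± 0.117 (adjusted p = 0.0220) and Eif3b, of the initiation factor eIF3, by 0.42 ± 0.0940 (adjusted p = 0.00610), while Eif2s2, of eIF2, had 0.025 ± 0.101 (adjusted p = 0.875). Bop1, needed to build the large subunit, rose by 0.65 ± 0.098 (adjusted p = 0.000900). The other named assembly genes were not called: Tcof1 had 0.31 ± 0.115 (adjusted p = 0.0636), Efl1 -0.26 ± 0.0952 (adjusted p = 0.0555) and Sbds -0.067 ± 0.113 (adjusted p = 0.687). Of RNA polymerase I and its factors, Polr1c rose by 0.58 ± 0.115 (adjusted p = 0.00322) and Taf1d fell by 0.41 (SE 0.127, adjusted p = 0.0302), while Taf1c had 0.39 ± 0.171 (adjusted p = 0.107) and Taf1b -0.29 ± 0.130 (adjusted p = 0.117). Eef1a2, the elongation factor of muscle and nerve, had -1.43 ± 0.302 in TNTProx1 1 to 3 (adjusted p = 0.0685) and 0.34 ± 0.274 in 4 to 6 (adjusted p = 0.377). The genes named here as rising or falling in 4 to 6 had these log2 fold changes in 1 to 3. Eef2 had -0.26, Eef2k -0.26, Eif6 -0.37, Eif4a2 -0.0050 and Eefsec -0.11. Eif3b had -0.089, Bop1 0.089, Polr1c -0.23 and Taf1d -0.24.

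Genes of mTOR and growth control had no common direction. Their median over 20 genes was -0.05 in TNTProx1 4 to 6 and -0.08 in 1 to 3, and in 4 to 6 edgeR called 3 of 20 higher and 3 lower, close to the background of 14.6% and 15.0%. Akt1s1, an inhibitor of mTOR complex 1, rose by 1.13 ± 0.121 (adjusted p = 0.000223) and Eif4ebp1, the repressor of cap-dependent initiation that mTOR inactivates, by 0.74 ± 0.100 (adjusted p = 0.000538). Rictor, of mTOR complex 2, fell by 0.52 (SE 0.109, adjusted p = 0.00440), and Rps6kb2, an S6 kinase, had -0.12 ± 0.129 (adjusted p = 0.510).

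The snoRNA host RNAs and 4 nuclear-retained RNAs were lower in their medians in TNTProx1 4 to 6. Among 15 snoRNA host RNAs, whose spliced transcripts often carry a TOP sequence as ribosomal protein mRNAs do, the median was -0.46, 3 had a positive value, and edgeR called 5 lower and 0 higher (background 15.0% and 14.6%). Gas5 fell by 1.10 (SE 0.139, adjusted p = 0.000408 by edgeR) and Snhg15 by 0.79 (SE 0.190, adjusted p = 0.00879), while Snhg18 had 0.42 ± 0.160 (adjusted p = 0.0686) and Epb41l4aos 0.31 ± 0.251 (adjusted p = 0.371). All 4 nuclear-retained RNAs were called lower, with a median of -1.81, and Malat1 fell by 1.74 (SE 0.240, adjusted p = 0.000599) and Kcnq1ot1 by 1.82 (SE 0.196, adjusted p = 0.000234). In TNTProx1 1 to 3 the medians were -0.06 for the snoRNA hosts and 0.35 for the nuclear RNAs, and edgeR called 0 of either. The part of nuclear against cytoplasmic RNA in these libraries was not tested.

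Genes of the mitochondrial ribosome and genes encoded in mitochondria stood apart from each other. In TNTProx1 4 to 6, the nuclear genes Mrpl17 and Mrps11 rose by 0.79 ± 0.103 (adjusted p = 0.000474 by edgeR) and 0.95 ± 0.163 (adjusted p = 0.00173), Mrps25 fell by 0.71 (SE 0.157, adjusted p = 0.00615) and Mrps35 had -0.24 ± 0.147 (adjusted p = 0.229). The mitochondrially encoded genes had medians of -0.95 with all 6 libraries, -0.82 in 1 to 3 and -1.28 in 4 to 6. With all 6 libraries, 17 of the 24 tested were lower at an unadjusted p under 0.05 (background 3.92%) and edgeR called 0 at an adjusted p under 0.05. In 4 to 6 edgeR called 15 of 26 lower (background 15.0%), among them mt-Atp6, a subunit of ATP synthase, which fell by 1.37 (SE 0.265, adjusted p = 0.00298), and mt-Co2, of cytochrome oxidase, which fell by 0.96 (SE 0.147, adjusted p = 0.000982). The transfer RNA gene mt-Tw had 0.44 ± 0.263 (adjusted p = 0.227). The share of the members in counts outside these genes was 1.76% in TNTSham and 1.73% in TNTProx1.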

How the data were processed

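Total RNA was depleted of ribosomal RNA and sequenced from stranded paired-end libraries, per the labels' protocols. The authors deposited raw read counts per gene for all 13 samples. The tools listed in the submitters' processing notes are fastp 0.20.1 for trimming, HISAT2 2.2.1 for alignment (build GRCm39) and featureCounts of Subread 2.0.2 for counting. Their strand setting and annotation release were not given in the sources used here. Symbols came from a list of gene names by identifier and, where it had none, from GENCODE M21, and 52081 identifiers had a symbol. Classes, lengths and GC content came from GENCODE M21. No 2 libraries were identical.

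Counts were scaled by TMM and filtered by filterByExpr, and groups were compared over all genes with the quasi-likelihood F test of edgeR 4.0.16 (R 4.3.3), with Benjamini-Hochberg adjustment and a threshold of 0.05. Standard errors are the log2 fold change divided by the square root of F. Simulated counts of 7 and 6 libraries, with 50 genes shifted per fold size, were used to check the tests. Of those shifted 1.5-fold, edgeR found 7, DESeq2 24 and voom 11. The numbers were 25, 36 and 25 at 2-fold and 46, 48 and 45 at 4-fold. False calls numbered 12, 53 and 6, and with no gene shifted 0, 12 and 0 genes were called. In that design a lack of edgeR calls says little about changes of 1.5-fold. The shifted genes were drawn from all tested genes with mean log2 CPM above 0, and the shift was the same in all 6 TNTProx1 libraries. The 2 sets of TNTProx1 libraries were not modelled, so these numbers are not recovery rates for the members. This simulation did not cover the comparisons with 3 TNTProx1 libraries. Alternatives were DESeq2 1.42.0, limma voom (limma 3.58.1), robust fitting, 3 scalings, 2 filters, coding genes only and libraries left out. Fits of the 2 library sets under other scalings, tests and libraries left out were chosen after seeing the data. The members, lists and library sets were chosen with earlier results of these data known, and support nothing by their choice.

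The rule named Rplp0 to Rplp2 and Rpsa, 7 paralogs and their partners, 6 members with other roles, the 4 members of smallest p in each direction, the 3 of highest level per kb in each subunit, and 2 genes per list and direction. Rps16, Rps26, Rpl32 and Rps15a were named after their values were seen. One gene of the list of other ribosome components is not reported here. Replicate numbers were given in accession order.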

Additional observations from a re-analysis of the deposited data

How the results depend on the processing

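With all 13 libraries, edgeR called 0 genes and 0 members, and the other settings gave counts of their own. DESeq2 called 619 genes and 1 member, voom 573 genes and 6 members, and edgeR without a filter 1 gene. The member median was -0.39 under voom, with 4 members positive. TNTProx1 1 to 3 alone gave a median of -0.58 with 2 positive, and TNTProx1 4 to 6 alone 7047 genes, 44 members, a median of 0.38 and 78 positive. Leaving out 1 library gave 0 to 589 genes (589 without TNTProx1 1, 34 without TNTSham 5), 0 to 1 members called and 26 to 56 positive. For TNTProx1 1 to 3, DESeq2 called 2349 genes in either direction, of which 1446 were lower, and 70 members, all lower. Voom called 2527 genes in either direction, of which 1307 were lower, and 59 members, all lower. Leaving out 1 library gave 0 to 1257 genes in either direction and 0 to 44 members lower. For TNTProx1 4 to 6 it gave 0 to 1 members lower.

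Log2 fold changes over all 6 libraries changed sign as follows, and the cause was not tested. With TNTProx1 1 to 3 left out they were Rpl3 0.39, Rpl22 0.088, Rpl7 0.33, Rps27 0.21, Rpl5 0.27, Rpl11 0.42, Rps27a 0.26, Rps12 0.26, Rpl4 0.26, Rpl36al 0.30, Eef1a2 0.34 and Eif2s2 0.025. With TNTProx1 4 to 6 left out they were Rplp0 -0.79, Rplp1 -0.41, Rplp2 -0.41, Rpsa -0.58, Rpl22l1 -0.44, Rpl39l 0.017, Rpl7l1 -0.077, Rps27l -0.51, Rpl10 -0.37, Rps4x -0.40, Rps6 -0.53, Rps19 -0.60, Rpl13a -0.63, Rpl36 -0.42, Rack1 -0.54, Fau -0.51, Eef2 -0.26, Eefsec -0.11, Eif3b -0.089, Eif6 -0.37, Polr1c -0.23, Taf1c -0.027, Eif4ebp1 -0.11, Rictor 0.034, Epb41l4aos -0.060, Malat1 0.28, Kcnq1ot1 0.35, Mrpl17 -0.029, Mrps25 0.083 and mt-Tw -0.21. Under voom they were Rplp0 -0.47, Rpsa -0.30, Rpl22l1 -0.32, Rpl7l1 -0.0047, Rps27l -0.35, Rpl10 -0.19, Rps4x -0.25, Rps6 -0.36, Rps19 -0.36, Rpl13a -0.38, Rack1 -0.33, Fau -0.20, Eefsec -0.072, Eif3b -0.010, Eif6 -0.14, Polr1c -0.10, Epb41l4aos -0.00062, Kcnq1ot1 0.013 and mt-Tw -0.21. Rps19, at 0.01, was -0.012 with DESeq2 and with median-of-ratios scaling, -0.030 with upper quartile scaling, -0.029 with library totals, -0.00022 with the filter at 1 CPM and -0.023 over protein-coding genes only.

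Leaving out 1 library moved Rpl22l1 between -0.084 and 0.14, Rpl39l between -0.35 and 0.079, Rps27l between -0.11 and 0.17, Rpl3 between -0.11 and 0.095, Rpl7 between -0.15 and 0.036, Rps6 between -0.084 and 0.14, Rps19 between -0.12 and 0.14, Rpl11 between -0.16 and 0.085, Rpl4 between -0.13 and 0.056, Rpl36al between -0.12 and 0.11 and mt-Tw between -0.0049 and 0.36. No paired analysis was possible because the labels give no replicate numbers that the groups share. Depth was low for Rpl39l, with 252 counts in all libraries together, and for Rpl10l, with 1.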
